A study of Mus musculus with 6 samples.

Results

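The 33 genes described here encode enzymes of gluconeogenesis and of amino acid breakdown, most of them characteristic of the proximal tubule and the liver. They were chosen by name, as the array probes whose transcript accession belongs to a gene of the set, and all 33 had at least 1 probe well above background on all 6 arrays. They form part of 15305 genes tested in RNA of the whole kidney, from 3 male C57BL/6J mice labelled as iNampt conditional knockouts and 3 labelled as controls. Each animal had its own single-colour Agilent array. The product of Nampt turns nicotinamide into nicotinamide mononucleotide, the slow step in recycling NAD, and the series title places its role in the proximal tubules and names Sirt6. The labels give neither the deleter strain nor the alleles carried by the controls, nor the age of the animals, so which kidney cells lost Nampt is not known from them.

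The cortex of the kidney makes glucose during fasting and acidosis, mainly in the proximal tubule, from lactate, glutamine and glycerol. The carbon skeletons of glutamine, proline, glycine and other amino acids enter this route through transaminases and NAD-dependent dehydrogenases, and the nitrogen leaves as ammonium. The same cells make arginine from citrulline and the precursor of creatine from arginine and glycine. In liver, SIRT6 is known to restrain gluconeogenic transcription through the coactivator PGC-1alpha and the factor FOXO1, which act on genes such as Pck1 and G6pc.

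The 3 stretches of promoter sequence below are shown as background, since no difference between the groups was established for their genes. Pck1 and G6pc are the usual readouts of the gluconeogenic programme, and Bhmt2 and Dmgdh are transcribed away from each other out of 1 short interval. Sequences and coordinates are those of RefSeq on GRCm38.p6, given 5′ to 3′ on the plus strand, and the array itself was designed on mm9. Of the 33 genes, 30 matched an entry. Capitals mark matches, on either strand, to TTACGTCA, the cAMP response site known from the Pck1 promoter, to GTTAAT, a short core recognised by the tubular factor HNF1, and to GGGCGG, the GC box.
Pck1, chr2:173152823-173153072, the 250 bases before the start: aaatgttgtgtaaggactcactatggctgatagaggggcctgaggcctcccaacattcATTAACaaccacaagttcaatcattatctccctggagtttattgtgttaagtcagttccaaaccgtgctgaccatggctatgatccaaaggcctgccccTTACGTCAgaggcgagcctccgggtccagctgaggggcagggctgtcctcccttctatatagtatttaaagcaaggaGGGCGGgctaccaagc
G6pc, chr11:101367466-101367715, the 250 bases before the start: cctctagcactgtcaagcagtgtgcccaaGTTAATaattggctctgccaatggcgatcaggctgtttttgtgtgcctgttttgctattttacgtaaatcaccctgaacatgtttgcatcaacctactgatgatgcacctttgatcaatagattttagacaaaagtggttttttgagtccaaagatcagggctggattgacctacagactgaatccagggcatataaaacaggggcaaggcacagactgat
Bhmt2 to Dmgdh, chr13:93674303-93674435, the 133 bases between the starts of the genes: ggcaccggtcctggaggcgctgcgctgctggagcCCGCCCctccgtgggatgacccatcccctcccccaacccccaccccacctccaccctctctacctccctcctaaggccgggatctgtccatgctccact

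Among 32851 promoter windows of 250 bases before and 50 after a start, 0.499% held TTACGTCA, and Pck1 was the only one of the 30 genes with it. GTTAAT was found in 7.10% of windows and in those of Pck1, G6pc, Got2 and Prodh2. The HNF4 core AAAGTCCA was found in 1.248% of windows, and in those of Agxt2 and Hgd. The GC box was found in 35.7% of windows and in those of 17 of the 30 genes. The FOXO core GTAAACA (3.65% of windows) and the consensus cAMP response site TGACGTCA (1.79%) were in none of the 30. The search read letters only and shows no binding.

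Between 57.3% and 63.3% of spots were well above background on each array and no spot was saturated. The lowest shares were those of knockouts 2 (58.1%) and 3 (57.3%). Their weakest spots well above background had linear signals of 29.6 and 32.2, against 18.5 to 20.9 on the other arrays. All arrays were on 1 slide, where knockouts 2 and 3 occupied row 2 and knockout 1 shared row 1 with the controls. The precision is limited by the number of animals, and p-values measure the spread between these mice. Nampt itself lay at 1.80, 1.502 and 1.53 in knockouts 1 to 3, against 2.78, 2.59 and 2.65 in controls 1 to 3, in log2 signal relative to the 75th percentile of the array, the scale used throughout. It was lower in the knockouts by limma (log2 difference -1.06 ± 0.10 SE, adjusted p = 0.0431). The groups did not overlap, and the adjusted p was 0.0579 with quantile normalisation, 0.0891 with the replicate number in the fit, 0.0733 with the slide row in the fit, which leaves knockout 1 alone against the controls, and from 0.0209 to 0.180 when 1 array was left out. All 16 markers of the proximal tubule that were looked for were measured, and their median differed from the control mean by -0.03, 0.03 and 0.03 in the knockouts, against -0.03, -0.04 and 0.09 in the controls. In whole-kidney RNA, fewer cells of a type and less RNA per cell cannot be told apart.

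None of the 33 genes passed a Benjamini-Hochberg adjusted p of 0.05 in limma's fit over all genes, in which 0.17% of genes passed (0.105% higher and 0.0653% lower in the knockouts). At an unadjusted p under 0.05 the count was also 0, against 12.8% of all genes tested. The largest differences were those of Glul at -0.25 and Bhmt at 0.24 on the log2 scale, and the median over the 33 genes was -0.0062, against -0.0077 over all genes tested. All 33 differences had a 95% interval inside a 2-fold change in either direction and 30 inside a 1.5-fold change, the exceptions being Hpd, Gldc and Bhmt. The corresponding shares over all genes were 94.8% and 84.4%. None of the 33 lies on chromosome 12, the chromosome of Nampt, which carries 8 of the 26 genes that passed.

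**Figure D1:**
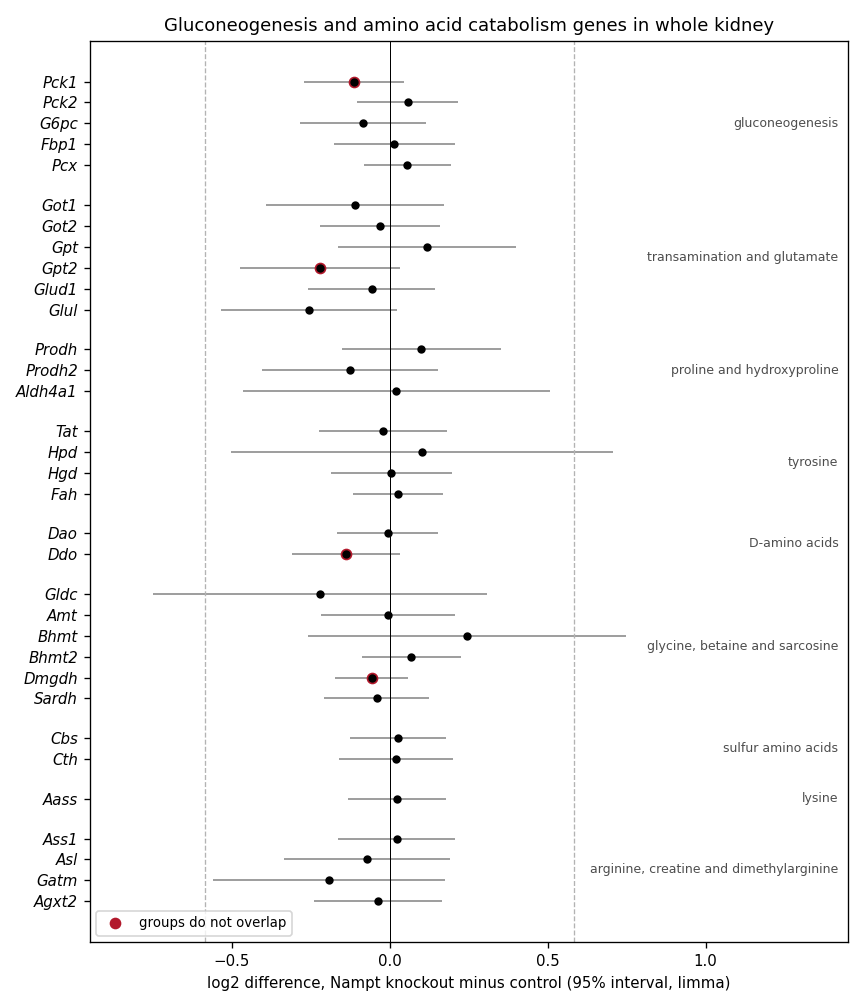
Log2 difference of each gene, Nampt knockout minus control, with its 95% interval from limma (3 kidneys per group), grouped by pathway, with dashed lines at a 1.5-fold change and red points where the groups did not overlap. The intervals of Hpd, Gldc and Bhmt reach past 1.5-fold and every interval includes 0.

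The 5 enzymes placed under gluconeogenesis gave little difference between knockouts and controls. Pck1, the cytosolic phosphoenolpyruvate carboxykinase that commits oxaloacetate to glucose, lay at 7.23, 7.24 and 7.22 in knockouts 1 to 3 and at 7.29, 7.28 and 7.47 in controls 1 to 3. All knockouts were below all controls, by a margin much smaller than the gap between control 3 and the other two controls, and the difference of -0.11 ± 0.06 (SE) had an adjusted p of 0.537 in limma. The 95% interval of Pck1 ran from -0.27 to 0.05. Leaving out 1 array gave differences of Pck1 from -0.15 to -0.052, with -0.052 reached without control 3. Pck1 is also an adipocyte gene. The 7 of 8 adipocyte markers tested had median deviations from the control mean of -1.50, -1.89 and 0.53 in knockouts 1 to 3 and 0.48, -0.61 and 0.06 in controls 1 to 3. The part of adipocytes in the Pck1 values was not tested.

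G6pc, the catalytic subunit of glucose-6-phosphatase, lay at 6.22, 6.45 and 6.39 in the knockouts and at 6.49, 6.33 and 6.49 in the controls. Knockout 1 was below all controls and the other two knockouts were within their range (difference -0.08 ± 0.08 SE, limma adjusted p = 0.726). With array weights G6pc stood at 0.014, so no direction can be given for it. Fbp1, fructose-1,6-bisphosphatase, lay at 8.72, 8.71 and 8.65 in the knockouts and at 8.62, 8.57 and 8.83 in the controls. The knockouts all fell between the lowest and highest control.

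Pcx, pyruvate carboxylase, lay at 6.70, 6.77 and 6.74 in the knockouts and at 6.69, 6.60 and 6.75 in the controls, a difference of 0.06 ± 0.06 (SE). Knockout 2 was just above the highest control and the others were within the control range. The mitochondrial carboxykinase gene Pck2 lay at -2.88, -2.80 and -2.81 in the knockouts and at -2.998, -2.81 and -2.85 in the controls, with overlap. The 95% intervals of Fbp1, Pcx and Pck2 ran from -0.18 to 0.21, from -0.08 to 0.19 and from -0.10 to 0.22.

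**Figure D2:**
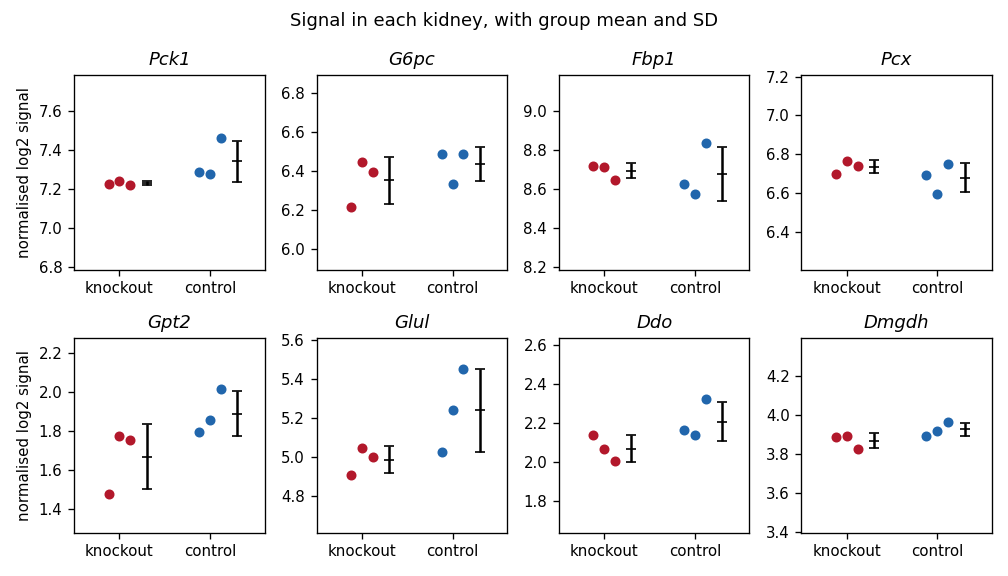
Normalised log2 signal in each kidney for 8 genes, knockouts left of controls, with the group mean and SD beside the points (n = 3 each). Every panel spans 1 log2 unit. The groups do not overlap for Pck1, Gpt2, Ddo and Dmgdh.

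Of the enzymes that move nitrogen between amino acids and glutamate, 5 of 6 had a negative difference, and the group had the lowest median of the pathways with more than 1 gene, -0.08. Glul, glutamine synthetase, which recaptures ammonium, lay at 4.91, 5.05 and 5.002 in the knockouts and at 5.02, 5.24 and 5.45 in the controls. Control 1 was within the knockout range (difference -0.25 ± 0.11 SE, limma adjusted p = 0.427), and the 95% interval ran from -0.53 to 0.02. Without control 3 Glul was at -0.15, and without control 1 it was at -0.36 (limma unadjusted p = 0.00918, adjusted p = 0.220). Control 1 was the lowest control for Glul, and also for Hpd, Gldc and Gatm below. Leaving it out was bound to lower the differences of these genes, so the p-values without it are no separate support. Gpt2, the mitochondrial alanine aminotransferase, lay at 1.47, 1.77 and 1.75 in the knockouts and at 1.79, 1.85 and 2.01 in the controls. All knockouts of Gpt2 were below all controls, knockout 1 by the widest margin (difference -0.22 ± 0.10 SE, limma adjusted p = 0.451). Without knockout 1 Gpt2 was at -0.12.

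Gpt, the cytosolic alanine aminotransferase, lay at 2.49, 2.71 and 2.74 in the knockouts and at 2.33, 2.58 and 2.68 in the controls, with overlap. Got1, the cytosolic aspartate aminotransferase of the malate-aspartate shuttle, lay at 4.57, 4.77 and 4.76 in the knockouts and at 4.61, 4.81 and 5.01 in the controls (difference -0.11 ± 0.11 SE). Knockouts 2 and 3 of Got1 were inside the control range, and the difference was -0.21 without control 1 and -0.011 without control 3. Its mitochondrial partner Got2 was at -0.03 ± 0.08 (SE). Glud1, glutamate dehydrogenase, which uses NAD or NADP to release ammonium, lay at 5.61, 5.62 and 5.64 in the knockouts and at 5.54, 5.65 and 5.84 in the controls. The Glud1 knockouts were closely grouped within the control range, and the other Glud1 probe gave -0.03 beside the -0.06 of the probe used.

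Because arrays can differ in scaling, paired enzymes were also compared as a ratio within each array, given as log2 relative to the mean of the controls. These 5 pairs were chosen after values had been seen. The ratio of Gpt to Gpt2 was 0.37, 0.30 and 0.34 in knockouts 1 to 3, against -0.11, 0.08 and 0.02 in controls 1 to 3. All knockouts were above all controls, a difference of 0.34 on the log2 scale (1.26-fold), with an exact two-sided permutation p of 0.1, the smallest that 3 against 3 allows, and 0.25 after adjustment over the 5 pairs. The ratio of Prodh to Prodh2 was 0.09, 0.24 and 0.34 in the knockouts, against -0.06, 0.04 and 0.02 in the controls, again without overlap (exact permutation p = 0.1, adjusted 0.25). The ratios of Pck1 to Pck2, Got1 to Got2 and Bhmt to Bhmt2 overlapped between the groups, with differences of -0.17, -0.08 and 0.18 and exact permutation p of 0.2, 0.4 and 0.5. A ratio shows unequal values of the members of a pair and not which of them moved. Since the pairs were chosen on the same values and no p below 0.1 was possible, these tests cannot decide whether a ratio differs. No conclusion is drawn from them. How often ratios of other genes lack overlap was not tested, and among single genes 19.5% did not overlap.

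**Figure D3:**
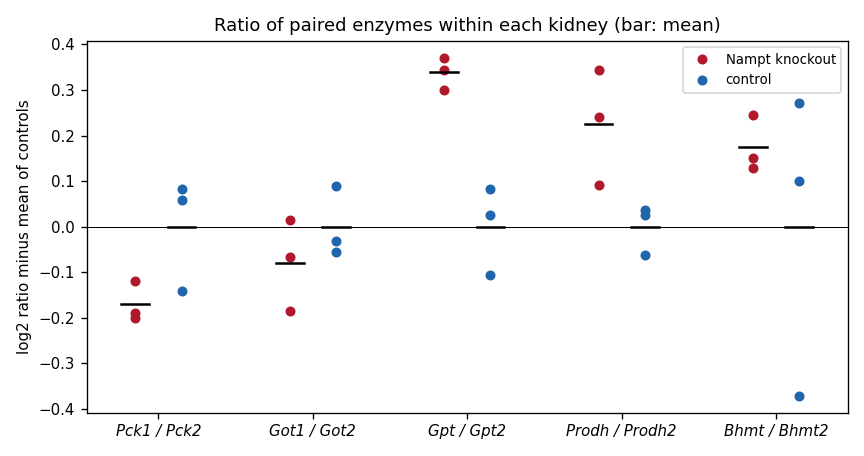
Log2 ratio of 5 enzyme pairs within each kidney, relative to the mean of the controls, with knockouts (red) left of controls (blue) and bars at group means. The 3 knockouts lie above the 3 controls for Gpt to Gpt2 and for Prodh to Prodh2, and the groups overlap for the other 3 pairs.

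In proline breakdown, Prodh, proline dehydrogenase, and Aldh4a1, the NAD-dependent enzyme that completes the route to glutamate, were at 0.10 ± 0.10 and 0.02 ± 0.20 (SE). Aldh4a1 was low in knockout 1 at 6.11 and in control 1 at 6.05, while the other kidneys of both groups lay from 6.53 to 6.63. Prodh2, which oxidises hydroxyproline, lay at 4.12, 3.91 and 3.798 in the knockouts and at 3.93, 4.05 and 4.23 in the controls. Knockouts 2 and 3 of Prodh2 were below all controls and knockout 1 was between controls 2 and 3 (difference -0.13 ± 0.11 SE, limma adjusted p = 0.709), and the difference was -0.046 without control 3.

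The tyrosine pathway was measured from its aminotransferase to fumarylacetoacetase. Hpd, which makes homogentisate, lay at 1.9999, 2.08 and 2.04 in the knockouts and at 1.35, 2.16 and 2.30 in the controls. The knockouts were within 0.08 of each other, whereas control 1 was far below the other kidneys, so that the difference of 0.10 ± 0.25 (SE) became -0.19 (unadjusted p = 0.0336, adjusted p = 0.318) without control 1. Tat, Hgd, homogentisate dioxygenase, and Fah, the last enzyme of the route, had differences of -0.02, 0.0053 and 0.03. The interval of Tat, the widest of these, ran from -0.22 to 0.18. Tat is chiefly a liver enzyme, and its signal of -2.16 to -2.39 in the knockouts and -2.21 to -2.38 in the controls was above background on all arrays.

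Of the flavoenzymes that oxidise D-amino acids, Dao, which acts on neutral D-amino acids, was at -0.0062 ± 0.07 (SE), and its other probe gave 0.05. Ddo, D-aspartate oxidase, lay at 2.13, 2.07 and 2.001 in the knockouts and at 2.16, 2.14 and 2.32 in the controls. The Ddo groups did not overlap, though knockout 1 and control 2 were almost equal (difference -0.14 ± 0.07 SE, limma adjusted p = 0.485). The second Ddo probe also showed no overlap, with 1.54, 1.53 and 1.55 in the knockouts and 1.59, 1.57 and 1.67 in the controls, a difference of -0.07.

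The glycine, betaine and sarcosine enzymes included the highest difference of the set, that of Bhmt. Bhmt, which remethylates homocysteine with betaine, lay at 0.96, 1.22 and 1.04 in the knockouts and at 0.39, 0.91 and 1.19 in the controls. Control 1 was below all other kidneys, and knockouts 1 and 3 lay between controls 2 and 3 while knockout 2 was just above control 3 (difference 0.24 ± 0.21 SE, limma adjusted p = 0.688), and the other 2 probes of Bhmt gave 0.11 and 0.21. The difference of Bhmt was 0.023 without control 1 and 0.42 without control 3. Gldc, the decarboxylase of the glycine cleavage system, lay at 4.29, 3.97 and 3.92 in the knockouts and at 3.84, 4.38 and 4.63 in the controls. Control 1 was the lowest kidney for Gldc, and the difference of -0.22 ± 0.22 (SE) became -0.44 without it (unadjusted p = 0.0291, adjusted p = 0.305). Without control 3 Gldc was at -0.048.

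Amt, the aminomethyltransferase of the same system, and Sardh, sarcosine dehydrogenase, were at -0.0050 ± 0.09 and -0.04 ± 0.07 (SE). Dmgdh, dimethylglycine dehydrogenase, the step after Bhmt, lay at 3.89, 3.89 and 3.82 in the knockouts and at 3.89, 3.92 and 3.96 in the controls. The groups did not overlap, but knockouts 1 and 2 were almost equal to control 1, and the difference was -0.06 ± 0.05 (SE, limma adjusted p = 0.683). Bhmt2, a homocysteine methyltransferase that uses S-methylmethionine, lay at 4.69, 4.83 and 4.76 in the knockouts and at 4.62, 4.67 and 4.78 in the controls, with overlap. Bhmt, Bhmt2 and Dmgdh are successive protein-coding genes on chromosome 13, and Bhmt2 and Dmgdh start from the interval shown above. Their differences of 0.07 ± 0.06 and -0.06 ± 0.05 (SE) lay on opposite sides of 0, each within its interval, and whether the Bhmt and Bhmt2 probes bind each other's transcript was not checked.

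Cbs and Cth, which turn homocysteine into cysteine, were at 0.03 ± 0.06 and 0.02 ± 0.07 (SE), and the other Cth probe gave 0.04. Aass, the bifunctional enzyme that opens lysine breakdown, was at 0.02 ± 0.06, with knockouts from 7.19 to 7.30 and controls from 7.15 to 7.32. Ass1, argininosuccinate synthase of renal arginine synthesis, lay at 8.88, 8.75 and 8.73 in the knockouts and at 8.68, 8.73 and 8.89 in the controls, with overlap (difference 0.02 ± 0.08 SE). Asl, the next enzyme, was at -0.07 ± 0.11. Gatm, which makes the creatine precursor guanidinoacetate, lay at 5.28, 5.38 and 5.30 in the knockouts and at 5.20, 5.52 and 5.81 in the controls. The knockouts were close to control 1 and below the other two controls (difference -0.19 ± 0.15 SE, limma adjusted p = 0.664), and Gatm stood at -0.34 without control 1 (unadjusted p = 0.0178, adjusted p = 0.264) and -0.04 without control 3. Agxt2, a mitochondrial aminotransferase that also degrades dimethylarginines, was at -0.04 ± 0.08.

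The groups did not overlap for 4 of the 33 genes, Pck1, Gpt2, Ddo and Dmgdh, where 19.5% of all genes tested did not overlap. All 4 were lower in the knockouts, where 10.5% of all genes were lower without overlap, and 0 were higher, against 9.04% of all genes. For every one of the 33 genes the range of the 3 controls exceeded the difference between the groups, compared with 77.7% of all genes tested. Control 3 was the highest of the 6 kidneys for 24 of the 33 genes (33.2% of all genes) and control 1 was the lowest for 16 (19.1% of all genes). The 16 proximal tubule markers and the 128 other pathway genes also leaned this way, with control 3 highest for 9 of the markers and 68 of the other pathway genes and control 1 lowest for 8 of the markers and 50 of the other pathway genes. The knockouts had a narrower range than the controls for 29 of the 33 genes, against 12 of the 16 tubule markers, 95 of the 128 other pathway genes and 56.7% of all genes. The median range was 0.11 among knockouts and 0.24 among controls for the 33 genes, and 0.15 among knockouts and 0.17 among controls over all genes.

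The median deviation of the 33 genes from the control mean was -0.03, 0.03 and -0.04 in knockouts 1 to 3 and -0.11, -0.02 and 0.12 in controls 1 to 3, so that all 3 knockouts lay between the lowest and highest control. Without control 1 the median difference was -0.07 and 13 of the 33 genes had groups that did not overlap (39.4%, against 33.9% of all genes in that setting). Without control 3 the median was 0.04 and 12 did not overlap (36.4%, against 29.5% of all genes), and in both cases 0 passed the adjusted test. Markers of other cells varied among the controls too, and some also differed between the groups. The macrophage list of 8 genes stood at a median of 0.28, 0.39 and 0.24 in the knockouts and at 0.21, -0.08 and -0.15 in controls 1 to 3. All 8 differences were positive, 6 with an unadjusted p under 0.05 in limma (1023 of 15305 genes were higher at that p), and 0 passed the adjusted test. The fibroblast list of 5 stood at 0.12, 0.40 and 0.17 in the knockouts and at 0.37, 0.10 and -0.48 in the controls. The T and NK cell list of 5 stood at 0.28, 0.64 and 0.40 against 0.39, -0.15 and -0.24. The 4 red cell genes measured stood at -0.0011, -1.01 and -1.11 against 0.23, -0.02 and -0.20. The part of these cells in the spread of the 33 genes was not tested.

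**Figure D4:**
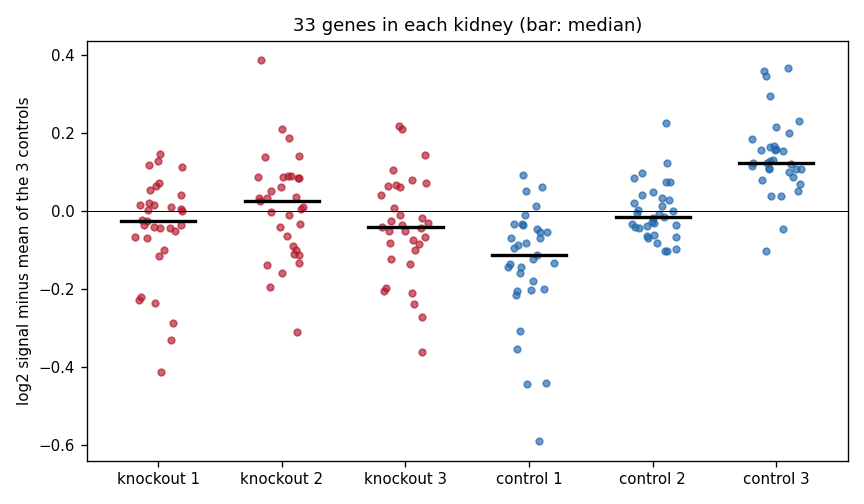
Log2 signal of the 33 genes in each kidney relative to the mean of the 3 controls, 1 point per gene, with bars at the medians and knockouts (red) left of controls (blue). The medians of the knockouts, -0.03 to 0.03, lie between those of control 1 (-0.11) and control 3 (0.12).

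By pathway, the median difference was 0.02 for the 5 gluconeogenic enzymes, 0.02 for the 3 proline enzymes, 0.02 for the 4 tyrosine enzymes and -0.02 for the 6 glycine, betaine and sarcosine enzymes. It was -0.05 for Ass1, Asl, Gatm and Agxt2 together, and -0.07 for Dao and Ddo. All knockout medians lay within the range of the control medians in every pathway except the D-amino acid and the sulfur amino acid enzymes. The median of the 10 markers of tubular injury stood at 0.11, 0.81 and 0.71 in knockouts 1 to 3, against -0.05, -0.05 and -0.01 in the controls. None of the 10 passed the adjusted test in limma and 8 were higher at an unadjusted p under 0.05, where 1023 of all 15305 genes were. Their part in the values of the 33 genes was not tested.

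Of 139 other genes of the same pathways and their regulators, 128 were measured above background, and 0 passed the adjusted test in either direction. At an unadjusted p under 0.05 there were 12 of 128, 7 higher and 5 lower, and the groups did not overlap for 22, 8 higher and 14 lower, against the 12.8% and 19.5% of all genes given above. With array weights 3 of the 128 passed, Arg2, Amdhd1 and Ppara, where 337 of all 15305 genes did. These shares are close to each other, so the 3 are not read as a result about the pathways. The 15 measured genes of serine, glycine and glyoxylate metabolism and the 21 of branched-chain amino acid breakdown had medians of -0.02 and 0.02.

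Arg2, the mitochondrial arginase that competes with Gatm for arginine, lay at -1.246, -1.09 and -0.98 in the knockouts and at -0.73, -0.23 and -0.23 in the controls. All knockouts were below all controls, with a difference of -0.71 ± 0.15 (SE) and a limma adjusted p of 0.199, and the value lay from -0.87 to -0.61 over 17 other settings. Tst and Mpst, sulfurtransferases of cysteine breakdown encoded by adjacent genes on chromosome 15, were at -0.24 ± 0.06 and -0.28 ± 0.08 (SE; adjusted p = 0.207 and 0.281), both without overlap. Tst lay at 4.09, 4.11 and 4.02 in the knockouts and at 4.30, 4.26 and 4.39 in the controls, and its other probe gave -0.25.

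In histidine breakdown, Amdhd1, imidazolonepropionase, lay at -3.34, -3.01 and -2.85 in the knockouts and at -3.45, -3.75 and -3.81 in the controls, a difference of 0.60 ± 0.15 (SE, limma adjusted p = 0.236). The difference of Amdhd1 lay from 0.33 to 0.74 over 17 other settings. Its signal was low on every array. On the same scale the weakest spots well above background lay at -4.72 and -4.64 on knockouts 2 and 3, against -5.55 to -5.31 on the other arrays. The part of background in the Amdhd1 values was not tested. Ftcd, the next folate-dependent enzyme of that route, was at 0.18 ± 0.07, also without overlap. Asns, asparagine synthetase, a target of the amino acid response, lay at 0.46, 0.71 and 0.76 in the knockouts and at 0.30, 0.29 and 0.39 in the controls (difference 0.32 ± 0.09 SE, adjusted p = 0.269). Azin2, of the antizyme inhibitor family, was at 0.32 ± 0.11, and the kynurenine pathway genes Kmo and Kyat1 were at 0.13 ± 0.05 and 0.16 ± 0.07, each with all knockouts above all controls, though a second Kyat1 probe overlapped.

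Lower without overlap, by small amounts, were Slc25a13, the mitochondrial aspartate-glutamate carrier, at -0.12 ± 0.05, and Gk, glycerol kinase, at -0.09 ± 0.05 (SE). G6pc3, the widely expressed glucose-6-phosphatase, was at -0.05 ± 0.05. Glyctk, glycerate kinase, was at -0.17 ± 0.06, and the branched-chain pathway genes Hsd17b10 and Acadsb were at -0.07 ± 0.05 and -0.04 ± 0.04. Adjusted p ran from 0.319 to 0.767 for these 6 genes, so none passed the test over all genes. Glyctk and Slc25a13 had an unadjusted p of 0.0245 and 0.0417, and second probes of G6pc3 and Glyctk overlapped between the groups.

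Among regulators, Ppara, the fatty acid receptor that also drives fasting metabolism, lay at 4.15, 4.28 and 4.28 in the knockouts and at 3.82, 3.89 and 4.10 in the controls (difference 0.30 ± 0.09 SE, limma adjusted p = 0.277). Other Ppara probes gave 0.24, with overlapping groups, and 0.21, without overlap. Sirt6 lay at 0.44, 0.46 and 0.50 in the knockouts and at 0.55, 0.58 and 0.60 in the controls, without overlap (difference -0.11 ± 0.04 SE, adjusted p = 0.401), and its other probe, at -0.24, overlapped. Hnf4a, the hepatocyte and tubular factor that acts on Pck1 and G6pc, was at -0.12 ± 0.06 and the insulin receptor substrate gene Irs1 at -0.18 ± 0.08, both without overlap (adjusted p = 0.468 and 0.405). Ppargc1a, which encodes PGC-1alpha, Sirt1 and Foxo1 were at 0.14 ± 0.09, 0.07 ± 0.05 and -0.02 ± 0.05, all with overlapping groups, and the sign of Foxo1 turned with quantile normalisation (0.0038). The other Ppargc1a probe gave 0.035.

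**Figure D5:**
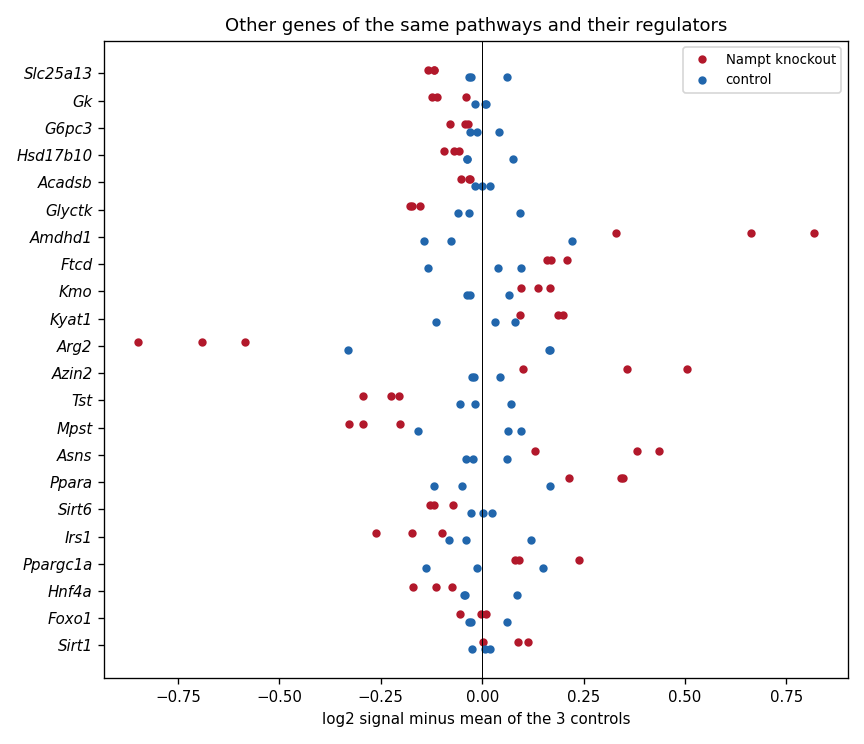
Log2 signal of 22 other pathway genes and regulators in each kidney relative to the mean of the controls, with knockouts (red) drawn above controls (blue) in each row. Arg2 is the farthest to the left (difference -0.71) and Amdhd1 the farthest to the right (0.60).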

How the data were processed

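Kidney RNA was labelled with Cy3 for single-colour Agilent mouse expression arrays, per the labels' protocols. The deposited spot intensity was extracted by the authors with Agilent Feature Extraction 10.7.1.1 and had, per the file headers, background subtraction and spatial detrending. Per the file headers, other columns hold 0 or 1 flags per spot. The value table that the authors deposited gives, for each probe, a linear ratio, equal within 1% to the processed signal divided by a constant of each array for probes above 1 (13933 to 13936 per array). Its medians were 0.075 to 0.084, and it showed no log scale and no gene centring.

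Outlier spots (92 to 151 per array) were left out, spots of a probe were averaged on the log2 scale, and each array's 75th percentile was subtracted. A probe was kept where every array of one group or the other measured it well above background. RefSeq accessions (GRCm38.p6 table, used for names, chromosomes, gene order and promoters) named 28020 of 55681 probes for 21150 genes, and 27661 were not named. The probe of highest mean represented a gene. Knockout was compared with control in limma 3.58.1 (R 4.3.3), adjusted over all 15305 genes. Intervals are 95% and use the moderated t distribution. Ratios of paired enzymes used exact permutation tests (scipy 1.17.1). Python 3.11.15, pandas 2.3.3 and matplotlib 3.10.9 were used. Tested on simulated data made from these arrays (15303 genes, of which 200 were changed), the fit recovered 60.4% of changes of 1.5-fold, 81.5% at 2-fold and 96.0% at 4-fold. Of the calls in the simulation, 5.6% were false. These shares hold for 200 changed genes, whereas 26 genes passed in the real comparison, so they cannot be carried over to it. In the real comparison the injury markers Havcr1 (log2 difference 3.71, limma adjusted p = 0.138) and Lcn2 (1.12, adjusted p = 0.156) did not pass. Shares of all genes for intervals and array order are over the 15303 genes with a value on every array.

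The 33 genes and all gene lists were chosen with earlier results of these data known. Per-array values are given for genes whose groups did not overlap and for a fixed set (Pck1, Pck2, G6pc, Fbp1, Pcx, Got1, Glud1, Glul, Gldc, Bhmt, Gatm, Ass1, Hpd and Prodh2). Of the other lists, up to 3 genes of smallest p without overlap were named, with Ppargc1a, Hnf4a, Foxo1, Sirt1 and Sirt6. Gpt and Bhmt2 are given per array as partners in a ratio. Alternatives were other scalings, background correction, the deposited ratios, filters, probe summaries, variance models, array weights, blocks for replicate number or slide row, and the omission of single arrays. The normexp alternative used median spot signals.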

Additional observations from a re-analysis of the deposited data

How the results depend on the processing

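Over 17 other settings, 0 of the 33 genes passed the adjusted test in any, with a lowest adjusted p of 0.1397 (Glul with array weights). Among 568 values of the 33 genes, 55 had the opposite sign, in 24 genes, and 9 genes kept their sign throughout (Pck1, Pcx, Got1, Gpt2, Glul, Ddo, Bhmt, Dmgdh and Gatm), though not their size: leaving out 1 array gave Pcx from 0.016 to 0.090, Ddo from -0.17 to -0.080 and Dmgdh from -0.074 to -0.035. No uncalled difference is given a direction by this. With quantile normalisation the sign turned for Pck2 (-0.021), Dao (0.010), Ass1 (-2.0e-05) and Foxo1 (0.0038). With normexp and quantile normalisation the sign turned for Pck2 (-0.0060), Fbp1 (-0.0081) and Got2 (0.00071). With array weights the sign turned for G6pc (0.014), Hpd (-0.021), Dao (0.063) and Agxt2 (0.0055). With the mean of probes the sign turned for Dao (0.020), Ass1 (-0.0066) and Foxo1 (0.017). Row 2 of the slide held only knockouts 2 and 3, so the fit with slide row as a block restates knockout 1 against the controls, with its spread assumed to be like that of the other arrays, and is no separate check. With slide row as a block the sign turned for Gpt (-0.042), Prodh2 (0.054), Aldh4a1 (-0.29), Tat (0.12), Gldc (0.010), Amt (0.0026), Bhmt2 (-0.00019), Cbs (-0.044), Cth (-0.027), Aass (-0.023), Asl (0.072) and Foxo1 (0.0094). With another probe the sign turned for Dao (0.045), Ass1 (-0.035) and Foxo1 (0.051). Leaving out 1 array gave Fbp1 from -0.036 to 0.093, Got2 from -0.10 to 0.025, Glud1 from -0.12 to 0.024, Prodh from -0.0013 to 0.19, Aldh4a1 from -0.16 to 0.18, Tat from -0.092 to 0.023, Hpd from -0.19 to 0.28, Hgd from -0.035 to 0.070, Fah from -0.0050 to 0.065, Dao from -0.055 to 0.047, Amt from -0.095 to 0.048, Sardh from -0.082 to 0.020, Cth from -0.046 to 0.075, Aass from -0.0087 to 0.073, Ass1 from -0.023 to 0.083, Asl from -0.15 to 0.011, Agxt2 from -0.10 to 0.040 and Foxo1 from -0.032 to 0.015. The causes were not tested.

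The number of the 33 genes without overlap was 2 with scaling by the median of detected probes (6.06%, against 19.0% of all genes) and from 4 to 13 when 1 array was left out, where 26.0% to 33.9% of all genes did not overlap (7 without knockout 1, 21.2% against 32.2%). Their median difference ran from -0.07 to 0.04 when 1 array was left out. Pathway medians ran from -0.036 to 0.076 for gluconeogenesis and from -0.16 to 0.14 for proline and hydroxyproline when 1 array was left out, and that of Cbs and Cth was -0.035 with slide row as a block. Of the 128 other pathway genes, 3 passed with array weights and 0 in the other settings. Over all genes, 337 passed with array weights, 77 with no filter, 57 with a trended robust variance, 16 with slide row as a block, 11 with quantile normalisation and from 0 to 57 when 1 array was left out (0 without control 2 or control 3, 1 without knockout 2 or knockout 3, 57 without knockout 1). The groups share replicate numbers, but deviations of same-numbered arrays correlated across genes at 0.10, -0.096 and -0.025, so the numbers were not taken to pair the animals. With the replicate block 0 of all genes and 0 of the 33 passed, and 2 of the 33 had an unadjusted p under 0.05. Nampt no longer passed the adjusted test with quantile normalisation (-1.04), with the replicate block (-1.06, adjusted p = 0.0891, at the same difference) and with slide row as a block (-0.87), and ran from -1.15 to -1.003 when 1 array was left out. Genes not above background in either group, 11 of the 139 other names, gave no value.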

Other observations

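In 3 genes of the other lists, chosen after their values were seen, knockout 1 stood apart from the other two knockouts. Irs2, an insulin receptor substrate, lay at 3.79 in knockout 1 and at 2.34 and 2.39 in knockouts 2 and 3, against 3.24, 3.04 and 2.9999 in controls 1 to 3. Dpys, dihydropyrimidinase of pyrimidine breakdown, lay at 1.09, 0.28 and 0.16 in the knockouts, against 0.39, 0.75 and 0.89 in the controls. Aadat, an aminotransferase of lysine and kynurenine metabolism, lay at -0.66, -1.72 and -1.49 in the knockouts, against -1.58, -1.43 and -1.63 in the controls. Knockout 1 was on the slide row of the controls, and knockouts 2 and 3 were on the other. The part of slide row in these values was not tested, and none of the 3 genes passed the adjusted test.

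Control 1 was the lowest kidney of all for the metabolic enzymes Hpd, Bhmt, Gldc and Aldh4a1 alike. Agmat, agmatinase, showed the same order among the controls, with 0.69, 1.17 and 1.255 in the knockouts against 0.61, 1.453 and 1.48 in controls 1 to 3. These genes were chosen after their values were seen. Among the controls, control 1 was lowest and control 3 highest for 22 of the 33 genes and 63 of the 128 other pathway genes. That order also held for 9 of the 16 tubule markers and 29.6% of all genes.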
